A study of Mus musculus with 8 samples.

Results

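Toll-like receptors are the sensors with which macrophages, monocytes and dendritic cells recognise molecules of bacteria and viruses, and their transcripts were followed here over 8 arrays of sorted mouse mononuclear phagocytes. The members were the genes Tlr1 to Tlr9 and Tlr13, 10 in all, taken by gene symbol from the platform annotation. A member was kept if it had a probe set carrying its symbol alone, and 9 of the 10 were, out of 19938 genes named in the same way. Tlr5, the flagellin receptor, had no such probe set and was not analysed here. Each of the 9 measured members had 1 probe set, and all 9 stood at or above the array median on all 8 arrays.

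Each group was represented by 1 array of total RNA from sorted cells. All mice were on a C57BL/6 background and carried Cx3cr1gfp/+, a reporter allele in which 1 copy of the fractalkine receptor gene is replaced by green fluorescent protein, so every group including the controls had a single working copy of Cx3cr1. Colitis was induced with dextran sodium sulphate, a salt that damages the epithelium, and at day 4 the colonic lamina propria gave CX3CR1int Ly6Clo, CX3CR1int Ly6Chi and CX3CR1hi F4/80hi cells, all from male mice. From the colon in steady state came CX3CR1hi F4/80hi cells of males, and the CX3CR1hi resident macrophages and monocyte-reconstituted resident macrophages of females. Splenic Ly6Chi monocytes were taken at day 4 of colitis from males and in steady state from mice labelled female. The labels give neither the age of the mice nor their number per sample, and do not describe how the reconstitution was done. The arrays were grouped by sorted population, which gave 2 CX3CR1int, 4 CX3CR1hi and 2 splenic arrays. Arrays of 1 population differ in condition, sex and sort, so the spread among them is not that of replicates. Both CX3CR1int arrays are from colitis, so CX3CR1int cells of the uninjured colon were not analysed here.

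Toll-like receptors work as dimers. Tlr1, Tlr2, Tlr4 and Tlr6 sit at the cell surface, where Tlr2 pairs with Tlr1 or Tlr6 to bind bacterial lipopeptides and Tlr4, with the accessory proteins Ly96 and Cd14, binds lipopolysaccharide. Tlr3, Tlr7, Tlr8, Tlr9 and Tlr13 sit in endosomes and bind nucleic acids, and need the chaperone Unc93b1 to get there. Most of these receptors signal through the adaptor Myd88, whereas Tlr3 uses Ticam1 (TRIF) and Tlr4 uses both, and the signal ends in NF-kappa B and interferon regulatory factors. In the colon, phagocytes lie beside a dense bacterial flora, and resident macrophages are known for releasing little inflammatory cytokine when given bacterial products.

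The markers of the sorted populations matched their labels for the macrophage and monocyte arrays, but other cell types were also seen. The mean log2 level of 9 macrophage markers was 9.28 to 9.94 on the CX3CR1int arrays, 11.75 to 11.95 on the CX3CR1hi arrays and 9.30 to 9.66 on the splenic arrays. The mean of 7 monocyte markers was 7.38 on the Ly6Clo array and 10.76 on the Ly6Chi array among CX3CR1int cells, 7.01 to 7.32 on the CX3CR1hi arrays and 11.43 to 11.45 on the splenic arrays. The mean of 8 conventional dendritic cell markers was 9.60 on the Ly6Clo array, with all 8 at or above the array median, against 7.62 on the Ly6Chi array, 6.00 to 6.40 on the CX3CR1hi arrays and 7.11 on both splenic arrays. The 10 epithelial markers averaged 9.74 to 9.92 on the CX3CR1int arrays and 10.91 to 11.77 on the CX3CR1hi arrays, with 10 of 10 at or above the array median, and 5.04 to 6.01 on the splenic arrays. T and NK cell markers were below the median on all arrays, 0 of 6. The steady-state splenic array, labelled female, carried transcripts of both sexes. Xist, the transcript of the inactive X chromosome, read 10.04 there and the Y-linked Kdm5d read 8.38. The female colonic arrays read 12.17 and 12.28 for Xist with Kdm5d at 4.98 and 4.94. The arrays of males read 4.30 to 4.78 for Xist and 8.42 to 8.63 for Kdm5d. The counts of members and of named pathway genes called against splenic cells are given with and without the steady-state splenic array. The array medians lay between 5.77 and 5.87, and values below are deposited log2 levels, on which a difference of 1 is 2-fold. Since 1 probe set cannot be compared in level with another, each receptor is compared only with itself.

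**Figure D1:**
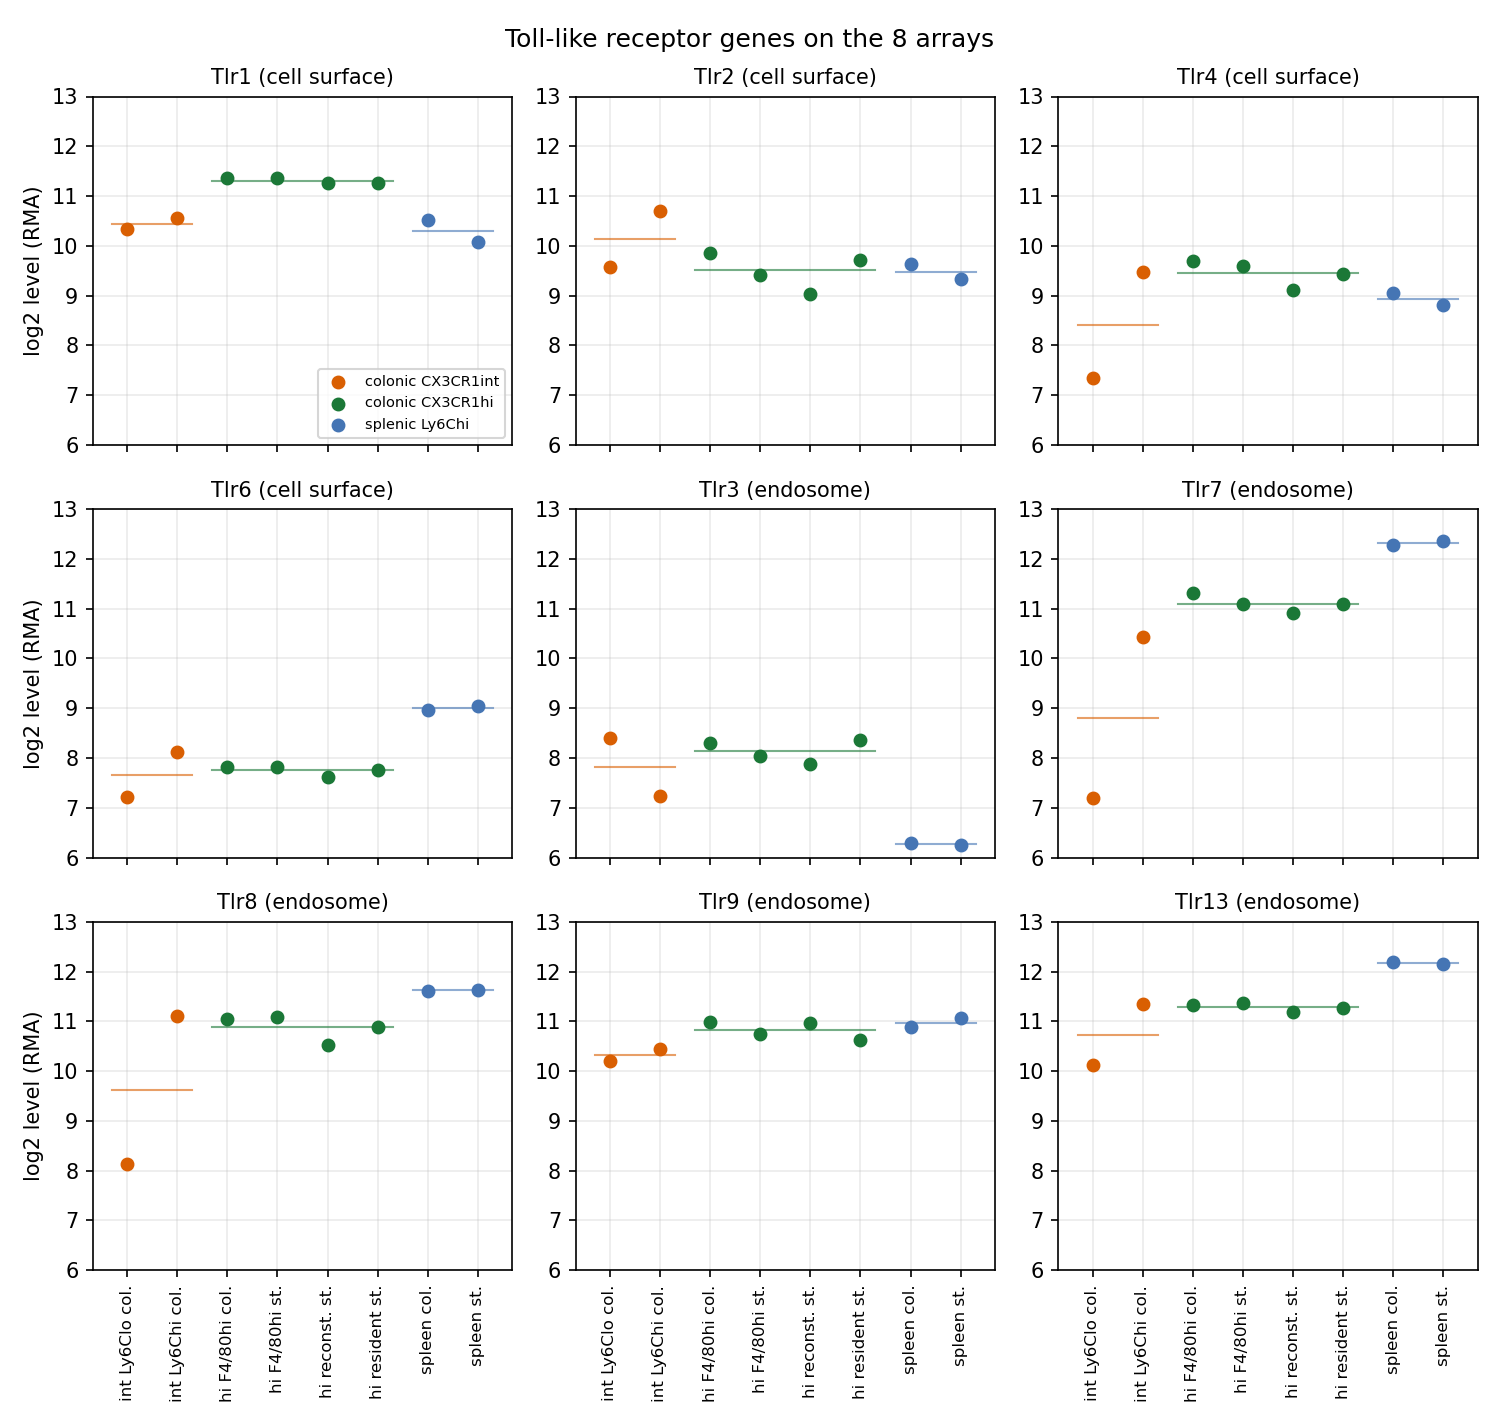
Deposited log2 level (RMA, vertical axis) of each measured Toll-like receptor gene on the 8 arrays, with CX3CR1int arrays in orange, CX3CR1hi arrays in green and splenic arrays in blue; each point is 1 array and each line a population mean (col., colitis; st., steady state; reconst., reconstituted). Tlr7 read 7.19 on the Ly6Clo array and 10.43 to 12.37 on the other 7, and Tlr3 read 7.23 or more in colonic cells and 6.29 or less in splenic cells.

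The surface receptors were first compared between colonic CX3CR1hi macrophages and splenic monocytes. Tlr1, which pairs with Tlr2 to bind triacylated lipopeptides, read 11.35, 11.36, 11.26 and 11.26 in the F4/80hi colitis, F4/80hi steady-state, reconstituted and resident CX3CR1hi cells, against 10.52 in colitis and 10.08 in steady-state splenic monocytes. All 4 CX3CR1hi arrays were above both splenic arrays, and the mean was 11.31 ± 0.06 (SD, n = 4) against 10.30 ± 0.31 (n = 2). Tlr1 was higher in CX3CR1hi macrophages by 1.01 on the log2 scale (SE 0.15, adjusted p = 0.0011, limma over 10673 genes). Tlr6, which pairs with Tlr2 for diacylated lipopeptides, went the other way. It read 7.82, 7.83, 7.61 and 7.76 in the same CX3CR1hi cells, against 8.97 and 9.04 in colitis and steady-state splenic monocytes, and the groups did not overlap. Tlr6 was lower in CX3CR1hi macrophages by a log2 fold change of -1.25 (SE 0.23, adjusted p = 0.0029). The Tlr1 and Tlr6 genes are neighbours in the RefSeq gene table, and these alternative partners of Tlr2 differed in opposite directions between the populations.

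Tlr2 itself, the shared chain, overlapped between CX3CR1hi and splenic cells. It read 9.86, 9.42, 9.02 and 9.71 in the F4/80hi colitis, F4/80hi steady-state, reconstituted and resident cells, against 9.64 in colitis and 9.32 in steady-state splenic monocytes. Its log2 fold change was 0.02 with a 95% interval of -0.77 to 0.81, which lies within 2-fold either way. Tlr4, the lipopolysaccharide receptor, read 9.69, 9.59, 9.12 and 9.43 in the CX3CR1hi cells in that order, against 9.05 and 8.80 in the splenic cells. All 4 CX3CR1hi arrays stood above both splenic ones, by a log2 fold change of 0.53 (SE 0.50, adjusted p = 0.40), which did not pass the threshold of 0.05. With only the CX3CR1hi and splenic arrays in the fit, the same difference of 0.53 had an adjusted p of 0.034, since the wide gap between the CX3CR1int arrays then no longer entered the estimate of spread.

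Among the measured endosomal members Tlr3 was the one higher in colonic CX3CR1hi cells. Its ligand is double-stranded RNA, and it read 8.30, 8.03, 7.87 and 8.37 in the F4/80hi colitis, F4/80hi steady-state, reconstituted and resident CX3CR1hi cells, against 6.29 and 6.26 in colitis and steady-state splenic monocytes. The groups did not overlap, and Tlr3 was higher in CX3CR1hi macrophages by 1.87 on the log2 scale (SE 0.30, adjusted p = 0.0017). Tlr13, which in mice recognises bacterial ribosomal RNA, read 11.32, 11.36, 11.19 and 11.26 in the CX3CR1hi cells, against 12.18 and 12.16 in the splenic cells. Its log2 fold change was -0.88 (SE 0.29, adjusted p = 0.035), with no overlap of the arrays. This call was lost with a sex term (adjusted p = 0.051), with a condition term (0.064), with no filter on dim genes (0.056) and without any 1 of the CX3CR1hi or splenic arrays (0.061 to 0.14), at a fold change of -0.85 to -0.91.

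The promoters of Tlr3, Tlr8 and Tlr13 are shown because Tlr3 took the opposite direction to the other endosomal members, while Tlr8 and Tlr13 varied together over the arrays. Each is the 250 bases before the annotated start in the RefSeq table (GRCm38.p6), where 7 of the 9 measured members had an entry. Tlr3 lies at chr8:45410381-45410630 on the minus strand, Tlr8 at chrX:167264330-167264579 on the minus strand and Tlr13 at chrX:106143025-106143274 on the plus strand. Capitals mark motif matches. The PU.1 core, the kappa B consensus, the interferon-stimulated response element and the AP-1 site were searched on both strands.
Tlr3: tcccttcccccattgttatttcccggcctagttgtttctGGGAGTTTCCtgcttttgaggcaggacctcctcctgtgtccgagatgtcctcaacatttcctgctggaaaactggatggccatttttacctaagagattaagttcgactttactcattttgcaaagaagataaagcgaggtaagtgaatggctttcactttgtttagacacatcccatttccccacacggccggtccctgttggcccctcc
Tlr8: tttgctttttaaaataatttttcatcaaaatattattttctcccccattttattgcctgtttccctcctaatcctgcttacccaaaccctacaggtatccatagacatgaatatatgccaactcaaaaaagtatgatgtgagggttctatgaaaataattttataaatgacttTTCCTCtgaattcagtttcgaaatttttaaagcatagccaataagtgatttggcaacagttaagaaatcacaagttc
Tlr13: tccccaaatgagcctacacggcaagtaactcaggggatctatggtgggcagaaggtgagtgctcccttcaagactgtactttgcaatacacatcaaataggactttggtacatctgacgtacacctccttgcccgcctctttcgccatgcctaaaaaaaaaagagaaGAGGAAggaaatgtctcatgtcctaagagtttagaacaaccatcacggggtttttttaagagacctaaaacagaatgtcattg
In Tlr3 the capitals match the kappa B consensus, 211 to 202 bases before the start. The core of the myeloid factor PU.1, GAGGAA, lies 83 to 78 bases before the start of Tlr13, and 77 to 72 bases before that of Tlr8 on the opposite strand, where it reads TTCCTC. The core was found in 23.3% and the kappa B consensus in 7.25% of 32851 promoters of the same length, so a match describes the sequence and is not evidence of binding. Among the members not shown, the PU.1 core also lay before an annotated start of Tlr1 and before that of Tlr9, and the kappa B consensus before that of Tlr2. The interferon-stimulated response element, found in 2.98% of promoters, lay before an annotated start of Tlr6. The AP-1 site, found in 6.75%, lay before that of Tlr9. Whether the motifs go with the levels was not tested.

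Tlr7, the receptor for single-stranded RNA, and Tlr8, which in humans senses RNA breakdown products, were lower in every CX3CR1hi array than in either splenic array. Tlr7 read 11.31, 11.09, 10.91 and 11.10 in the F4/80hi colitis, F4/80hi steady-state, reconstituted and resident cells, against 12.29 and 12.37 in colitis and steady-state splenic monocytes, a log2 fold change of -1.22 (SE 0.73, adjusted p = 0.19). Tlr8 read 11.05, 11.09, 10.53 and 10.88 against 11.61 and 11.64, with a log2 fold change of -0.73 (SE 0.68, adjusted p = 0.39). Neither passed the threshold in the fit over all 8 arrays, and both did with only the CX3CR1hi and splenic arrays, at adjusted p of 0.00024 for Tlr7 and 0.0081 for Tlr8. Tlr9, the receptor for unmethylated CpG DNA, read 10.62 to 10.98 in CX3CR1hi cells, against 10.88 and 11.07 in splenic cells, and its difference of -0.14 (95% interval -0.50 to 0.21) did not pass.

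In all, 2 of the 9 members were higher in CX3CR1hi macrophages (Tlr1, Tlr3) and 2 were lower (Tlr6, Tlr13), in a comparison in which 51.2% of 10673 genes passed, 22.2% higher and 29.0% lower. The members' median was -0.14, beside -0.12 over all genes. The share of members called was thus near that of all genes. How many of all genes had no overlap between populations was not counted, so a lack of overlap in a member is only a description. With only the arrays compared, 7 members passed, against 60.3% of all genes. Without the steady-state splenic array, whose sex label and transcripts disagree, Tlr1 (0.78, adjusted p = 0.015), Tlr3 (1.85, adjusted p = 0.019) and Tlr6 (-1.21, adjusted p = 0.031) still passed, where 29.7% of all genes did, while Tlr13 kept a value of -0.90 with an adjusted p of 0.14. Tlr7, Tlr8 and Tlr13 are X-linked, and the CX3CR1hi arrays, 2 of males and 2 of females, spanned 10.91 to 11.31 for Tlr7, 10.53 to 11.09 for Tlr8 and 11.19 to 11.36 for Tlr13.

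**Figure D2:**
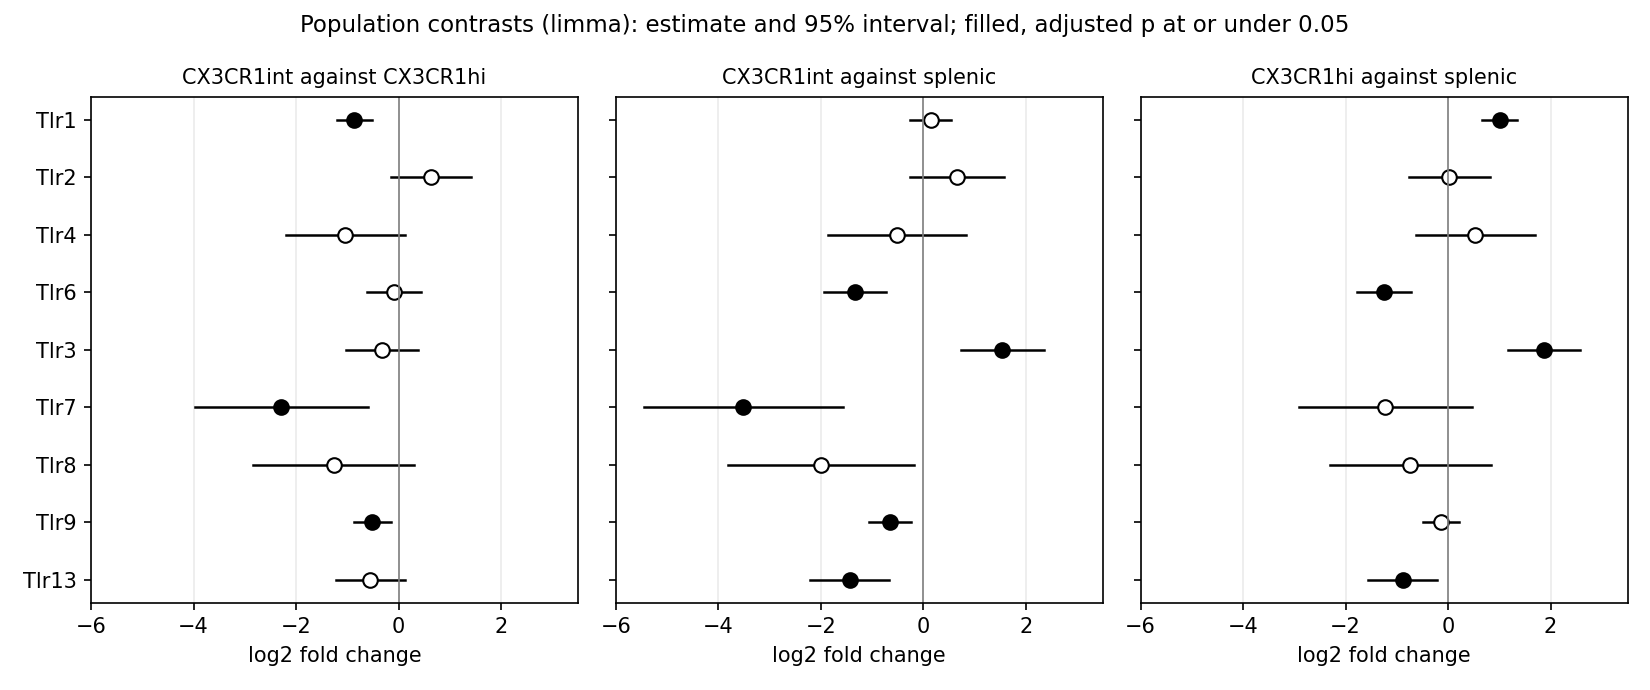
Log2 fold change of each measured Toll-like receptor gene (points) with its 95% interval (lines) in 3 population contrasts fitted with limma over 8 arrays, filled where the adjusted p was at or under 0.05. Tlr1 was lower in CX3CR1int than CX3CR1hi cells by -0.86 and higher in CX3CR1hi than splenic cells by 1.01, and Tlr7 had the widest intervals.

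The CX3CR1int cells of the inflamed colon were compared with the macrophages beside them. Tlr1 read 10.34 in Ly6Clo and 10.56 in Ly6Chi cells, below all 4 CX3CR1hi arrays at 11.26 to 11.36, with a log2 fold change of -0.86 (SE 0.15, adjusted p = 0.0058). Both CX3CR1int arrays gave the same direction, and this was the 1 member call that remained whichever array was left out. Tlr9 read 10.19 and 10.44, against 10.62 to 10.98 in CX3CR1hi cells, a difference of -0.51 (SE 0.15, adjusted p = 0.040). Tlr7 read 7.19 in Ly6Clo and 10.43 in Ly6Chi cells, against 10.91 to 11.31 in CX3CR1hi cells, with a difference of -2.29 (SE 0.73, adjusted p = 0.048). That mean describes neither array well, since Ly6Clo cells were far below and Ly6Chi cells just below the macrophages. Thus 3 of 9 members were lower and 0 higher in CX3CR1int cells, in a comparison where 29.9% of genes passed, 13.3% higher and 16.6% lower. The median of the members was -0.56, against 0.01 over all genes, and it was 0.02 without the Ly6Clo array and -0.97 without the Ly6Chi array. With condition as a term only Tlr1 passed, at -1.02 (adjusted p = 0.021), where 9.11% of genes did. The array left out also decided which members passed. Without the Ly6Chi array 7 members were lower and 0 higher, where 34.3% of genes passed, with Tlr4 at -2.11 and Tlr8 at -2.75 among them. Without the Ly6Clo array 4 passed, where 26.2% of genes did: Tlr2 was higher by 1.19 (adjusted p = 0.031), and Tlr1, Tlr3 and Tlr7 were lower by -0.75, -0.91 and -0.67. The lone CX3CR1int array of each of these fits is assumed to vary like the other populations.

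**Figure D3:**
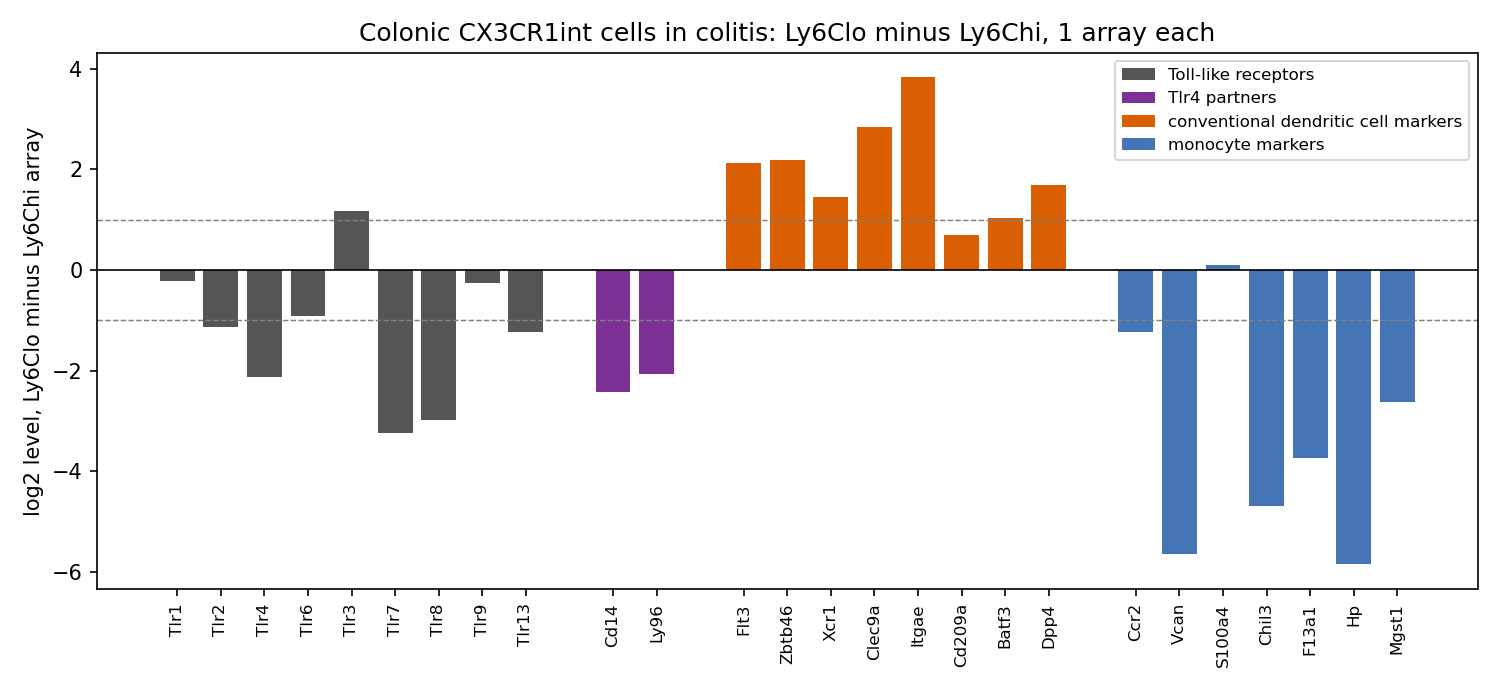
Difference in deposited log2 level between the Ly6Clo and Ly6Chi CX3CR1int arrays (vertical axis, Ly6Clo minus Ly6Chi) for the measured Toll-like receptors, the Tlr4 partners Cd14 and Ly96, and the measured conventional dendritic cell and monocyte markers; dashed lines mark a 2-fold difference. Tlr7 and Tlr8 lay at -3.24 and -2.97 and Tlr3 at 1.17, while the conventional dendritic cell markers were all above 0.

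The CX3CR1int subsets, Ly6Clo and Ly6Chi, both at day 4 of colitis, were also set side by side. Each is 1 array, so these differences have no replicate check and no test. Tlr7 was at 7.19 in Ly6Clo and 10.43 in Ly6Chi cells, a difference of -3.24, and 32 of 10132 genes lay as low or lower. Tlr8 was at 8.14 in Ly6Clo and 11.11 in Ly6Chi cells, a difference of -2.97, with 46 genes as low or lower. Tlr4 was at 7.35 and 9.48, a difference of -2.13, with 112 genes as low or lower. Tlr13 (10.12 in Ly6Clo, 11.34 in Ly6Chi) and Tlr2 (9.58 in Ly6Clo, 10.70 in Ly6Chi) were also over 2-fold lower in Ly6Clo cells, by -1.22 and -1.12. Tlr6 was at 7.21 in Ly6Clo and 8.12 in Ly6Chi cells, a difference of -0.91. Tlr3 was the exception, at 8.40 in Ly6Clo and 7.23 in Ly6Chi cells, 1.17 higher in Ly6Clo cells. Tlr1 and Tlr9 differed by -0.22 and -0.25, less than the SD of 0.40 over genes between the steady-state F4/80hi and resident CX3CR1hi arrays. So 5 members were at least 2-fold lower and 1 higher in Ly6Clo cells, while 5.51% of genes were lower and 6.46% higher by that much. The median member difference was -1.12, against 0.01 over all genes.

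The partners that Tlr4 needs for lipopolysaccharide were also lower in Ly6Clo than in Ly6Chi cells. Cd14, which hands lipopolysaccharide over, was at 9.39 in Ly6Clo and 11.82 in Ly6Chi cells, and Ly96 (MD-2), which binds it together with Tlr4, was at 8.69 in Ly6Clo and 10.77 in Ly6Chi cells. The differences, -2.43 for Cd14 and -2.07 for Ly96, were close to the -2.13 of Tlr4. Against colitis splenic monocytes, Ly6Clo cells differed by -0.06 for Cd14, -3.07 for Ly96 and -1.70 for Tlr4. Cd14 was thus not low in Ly6Clo cells beside splenic ones. Between the CX3CR1int subsets, conventional dendritic cell markers ran the opposite way. Flt3, a receptor of dendritic cell precursors, was at 11.16 in Ly6Clo and 9.03 in Ly6Chi cells, and the integrin gene Itgae at 9.47 in Ly6Clo and 5.64 in Ly6Chi cells. Of the markers of cross-presenting dendritic cells, Clec9a was at 9.65 in Ly6Clo and 6.81 in Ly6Chi cells and Xcr1 at 8.19 in Ly6Clo and 6.74 in Ly6Chi cells. The 6 measured plasmacytoid dendritic cell markers averaged 6.84 in Ly6Clo and 6.75 in Ly6Chi cells. Among them Siglech was at 5.64 in Ly6Clo and 6.04 in Ly6Chi cells, while Ccr9 was at 7.55 in Ly6Clo and 5.68 in Ly6Chi cells. The mean of the 7 monocyte markers was 7.38 in Ly6Clo and 10.76 in Ly6Chi cells. The part of these markers in the receptor differences was not tested, and in bulk samples fewer cells of a type and less RNA per cell cannot be told apart.

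Set against the other populations at day 4 of colitis, Ly6Clo cells had more members 2-fold apart than Ly6Chi cells had. Ly6Clo cells differed from colitis F4/80hi cells by at least 2-fold in 5 members, all lower (Tlr1, Tlr4, Tlr7, Tlr8 and Tlr13), where 11.8% of genes were lower and 7.27% higher. Ly6Chi cells differed from the same cells in 1, Tlr3, lower by -1.07, where 9.07% of genes were lower and 5.33% higher. Ly6Clo cells differed from colitis splenic monocytes in 6, with Tlr3 higher by 2.11 and Tlr4, Tlr6, Tlr7, Tlr8 and Tlr13 lower by -1.70 to -5.09, where 13.2% of genes were higher and 9.32% lower. Ly6Chi cells differed from them in 2, with Tlr2 higher by 1.06 and Tlr7 lower by -1.85, where 9.79% of genes were higher and 3.95% lower. These pairs share arrays, so the 4 counts are not independent.

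Across both arrays, CX3CR1int cells differed from splenic monocytes in 5 of the 9 members, against 24.4% of all genes, with 10.2% higher and 14.2% lower. Tlr3 was higher by 1.54 (SE 0.35, adjusted p = 0.018). Tlr6 was lower by -1.33 (adjusted p = 0.011), Tlr7 by -3.51 (SE 0.84, adjusted p = 0.022), Tlr9 by -0.65 (adjusted p = 0.033) and Tlr13 by -1.44 (adjusted p = 0.020). Tlr8 had a log2 fold change of -2.0 with an adjusted p of 0.10, past the threshold only without the Ly6Chi array. The median member was -0.65 and the median gene -0.08. The calls rest on both splenic arrays: without the steady-state splenic array, or without the colitis one, 0 of 9 members passed (5.88% and 8.33% of all genes did), the adjusted p of Tlr6 being 0.085 and 0.063. With only the CX3CR1int and splenic arrays 0 members passed, against 11.1% of genes.

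No receptor passed the threshold between colitis and steady state within a population. With population in the model, 0 of 10673 genes passed (0.0%) and 138 had an unadjusted p under 0.05. The members' log2 fold changes ran between 0.02 for Tlr6 and 0.41 for Tlr2, the last with a 95% interval of -0.40 to 1.23. The intervals of Tlr2, Tlr4, Tlr7 and Tlr8 held a 2-fold difference. Only 1 CX3CR1hi and 1 splenic array were from colitis, and the CX3CR1int arrays, which have no steady-state counterpart, inform only the spread. All 4 colitis arrays were of males, while the 3 arrays labelled female were all from steady state. In the splenic pair sex as labelled changed with condition, so the effects of colitis and sex cannot be told apart there. Between the single F4/80hi arrays, colitis minus steady state, no member moved by more than 0.44, where 1.47% of genes were 2-fold different. Between the splenic arrays none moved by more than 0.44, where 0.708% were. The test of whether colitis acted differently in CX3CR1hi and splenic cells gave 0 of 10673 genes past the threshold with 129 at an unadjusted p under 0.05, none of them a member. Without the steady-state splenic array the colitis comparison also gave 0 genes, with 280 at an unadjusted p under 0.05.

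Macrophages rebuilt from monocytes were compared with resident ones, 1 array each and with no test. Reconstituted minus resident cells differed by 0.01 for Tlr1, -0.69 for Tlr2, -0.31 for Tlr4, -0.15 for Tlr6, -0.50 for Tlr3, -0.19 for Tlr7, -0.34 for Tlr8, 0.36 for Tlr9 and -0.07 for Tlr13. Tlr2 and Tlr3 were lower by more than the SD of 0.36 over all genes of this pair. No member reached 2-fold, and 1.76% of genes did, so the count tells nothing of the members. Of the 9 members 7 were lower in the reconstituted cells, and for these 7 the reconstituted array was the lowest of the 4 CX3CR1hi arrays. The median was -0.19 for the members and -0.045 over all genes, so genes in general also leaned lower. The share of all genes lower or lowest on the reconstituted array was not counted, so these counts only describe the members. The steady-state F4/80hi cells, a second sort of untreated colonic macrophages but from males, differed from the resident cells by -0.33 for Tlr3 to 0.21 for Tlr8, with 0 members and 3.64% of genes at 2-fold. Tlr3 read 7.87 in the reconstituted cells, against 6.26 in steady-state splenic monocytes.

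The other genes of the pathway were followed in 7 lists of 67 genes, of which 57 were tested. In CX3CR1hi macrophages against splenic monocytes 20 were higher and 16 lower, with a median of 0.07, against -0.12 over all genes. Over all genes 22.2% were higher and 29.0% lower in the same fit over 8 arrays. Of the 13 target genes tested 9 were higher and 0 lower. Il10, the anti-inflammatory cytokine, was higher by 5.57 (adjusted p = 1.87e-05), the neutrophil attractant Cxcl2 by 5.32 (adjusted p = 0.0010), the prostaglandin synthase Ptgs2 by 5.05 (adjusted p = 0.0021) and the chemokine Ccl4 by 3.56 (adjusted p = 7.53e-05). Ptgs2 and Cxcl2 also differed between the splenic arrays themselves, at 8.78 and 8.46 in colitis, against 5.03 and 5.50 in steady state. Of the 5 adaptors 3 were lower and 1 higher. Ticam2 (TRAM), the bridge of Tlr4 to Ticam1, was lower by -1.83, Tirap, the bridge to Myd88, by -1.38 and Myd88 by -1.27, while Pik3ap1, an adaptor of phosphoinositide 3-kinase, was higher by 0.89. Ticam1, the adaptor of Tlr3, read 7.79 to 7.96 in CX3CR1hi cells, against 8.16 and 8.08 in splenic cells. It did not pass, at -0.26 (limma adjusted p = 0.28).

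The same shares, 22.2% of all genes higher and 29.0% lower, stand beside the counts of the other lists. Of 5 transcription factors 3 were lower, Irf7 by -2.40, Irf5 by -1.23 and Rela by -0.29, and 0 higher. Of 11 kinases and ligases 5 were lower, Ikbkb, Map3k7 and Tab2 at -1.63, -0.57 and -0.55 among them, and 1 was higher, Irak2 at 0.78. Inhibitors were split, 2 higher and 2 lower of 7: Tnfaip3 (A20), which removes ubiquitin chains from the signalling complex, by 2.31 and Nfkbia by 0.70, against Irak3 by -1.62 and Cyld by -0.65. Of 6 surface co-receptors 2 were higher, Cd14 by 2.25 and the scavenger receptor Cd36 by 2.16, and 2 lower, Lbp by -2.13 and Cd180 by -1.03. Among 10 endosomal genes 5 were higher, led by the proteases Ctsl at 2.30 and Lgmn at 1.63 and the transporter Slc15a3 at 1.39, and 1 was lower, Slc15a4, a transporter needed for Tlr7 and Tlr9 signalling, at -0.94. Without the steady-state splenic array 21 of the 27 genes of these lists named for this comparison kept their call and all 27 their direction, Ptgs2 at 3.17 and Cxcl2 at 3.84, while Cd14, Slc15a4, Map3k7, Rela, Irak3 and Cyld no longer passed. Markers of other cells also differed between these colonic and splenic arrays. Epithelial markers stood at or above the median for 10 of 10 in CX3CR1hi arrays, against 0 to 5 of 10 in splenic ones. The 6 stromal markers averaged 6.46 to 8.12 in CX3CR1hi arrays, with 4 to 6 of 6 at or above the median, against 5.50 to 5.51 with 2 of 6 in splenic ones, and 6.85 to 7.85 in CX3CR1int arrays. The 6 measured B and plasma cell markers averaged 7.13 to 7.95 with 3 of 6 in CX3CR1hi arrays, against 6.35 to 7.13 with 4 to 5 of 6 in splenic ones, and 7.43 to 8.68 in CX3CR1int arrays. The 5 endothelial markers averaged 6.13 to 6.28 in CX3CR1hi arrays, against 5.40 to 5.44 in splenic ones. The stromal Dcn and the plasma cell genes Jchain and Igha were higher in CX3CR1hi than splenic arrays by 5.21, 4.91 and 4.27 (limma adjusted p of 9e-05, 0.00023 and 0.0032). Other genes of these lists differed from them. The B cell gene Ms4a1 was lower by -1.83 (limma adjusted p = 0.0017), and Cd79a (-1.18) and Cd79b (-0.28) did not pass. Of the stromal markers Col1a1, Col1a2, Col3a1, Lum and Pdgfra, at 0.74 to 1.55, none passed. The part of these cells in the receptor and pathway differences was not tested.

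**Figure D4:**
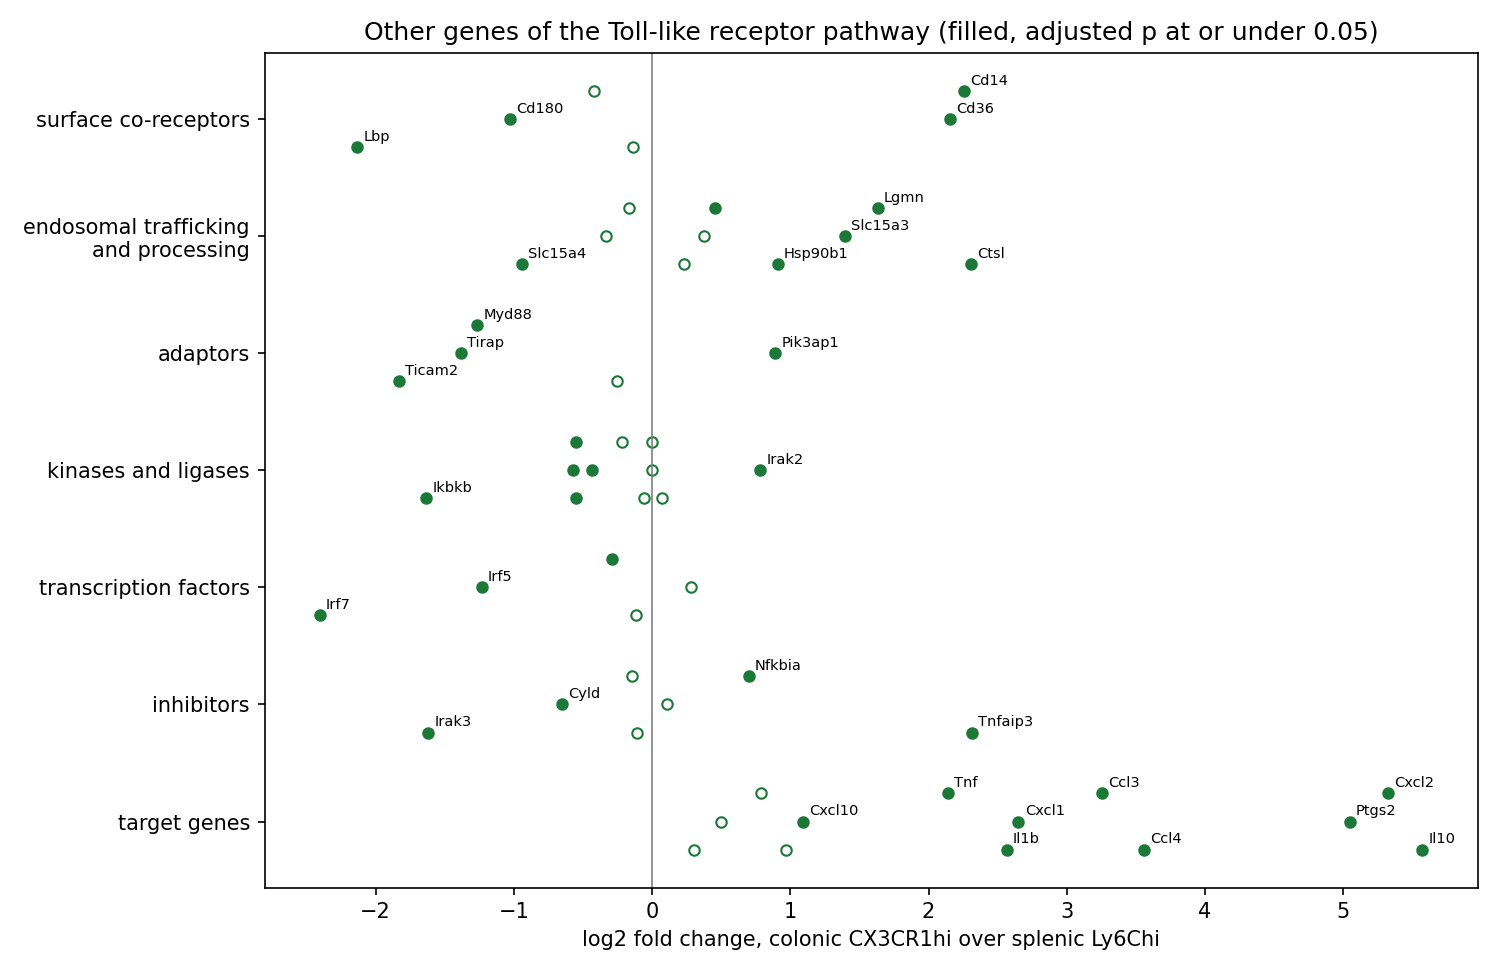
Log2 fold change (horizontal axis, CX3CR1hi over splenic) of the tested genes of 7 lists of the Toll-like receptor pathway, 1 point per gene and filled where the adjusted p was at or under 0.05; the vertical offset within a row only spreads the points. Target genes reached 5.57 for Il10 with none called lower, and adaptors and transcription factors lay mostly below 0, with Irf7 at -2.40.

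In CX3CR1int cells against CX3CR1hi cells 11 of the 57 were higher and 9 lower, beside 13.3% and 16.6% of all genes. With condition as a term 6 were higher and 7 lower, where 9.11% of all genes passed in either direction. The adaptors Ticam2 (0.88), Tirap (0.86) and Myd88 (0.84) were all higher, as were Irf7 (1.76), Irf5 (0.83), the kinase genes Ikbkb (1.49) and Irak2 (0.61), the ligase gene Traf6 (1.18) and Cyld (1.01), an inhibitor that removes ubiquitin. The co-receptors Cd36 and Ly96 were lower by -2.30 and -1.57. Unc93b1, the chaperone of the endosomal receptors, was lower by -0.66 (adjusted p = 0.011), at 11.03 in Ly6Clo and 11.44 in Ly6Chi cells, against 11.82 to 11.99 in CX3CR1hi cells. Ctsl (-1.60), Ctsb (-1.17) and Lgmn (-1.09), proteases that cleave the endosomal receptors into working form, were lower as well. Of the targets Il6 was higher by 3.11, Il23a by 1.62, and Il10 lower by -3.61 and Cxcl1 by -1.73. Il23a read 6.07 in Ly6Clo and 7.74 in Ly6Chi cells, and Il12b, whose protein pairs with that of Il23a, read 8.28 in Ly6Clo and 5.23 in Ly6Chi cells. Il12b did not pass against CX3CR1hi cells, at 0.75 (limma adjusted p = 0.45). Against splenic monocytes 17 were higher and 4 lower in CX3CR1int cells, beside 10.2% and 14.2% of all genes. Of the 13 targets 10 were higher, among them Ptgs2 by 5.69, Il6 by 3.61, Cxcl2 by 3.45 and Il1b by 2.84, and Ly96, Cd180, Ctsb and Ly86 lower by -1.99, -1.37, -0.80 and -0.49. Higher there too were Tnfaip3 (1.88), Irak2 (1.39), Slc15a3 (1.17), Nfkbia (0.92), Pik3ap1 (0.79), Rel (0.67) and Hsp90b1 (0.53). Without the steady-state splenic array all 15 genes named for this comparison kept their direction, with Ptgs2 at 3.81, Il6 at 3.49 and Cxcl2 at 1.96. Of the 15 genes named for this comparison 6 then kept their call: Cd180, Irak2, Tnfaip3, Ptgs2, Il6 and Il1b. Colitis against steady state gave 0 calls of 57.

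Over the 8 arrays some members, of the surface as well as the endosome, varied together or in opposite directions, given as descriptions. Tlr7 and Tlr8 had a Pearson r of 0.97, Tlr7 and Tlr13 of 0.95 and Tlr6 and Tlr13 of 0.93, whereas Tlr3 ran against Tlr6 at -0.95 and Tlr13 at -0.81. Tlr4, a surface receptor, had r of 0.81 with Tlr8 and 0.725 with Tlr7, but 0.23 with Tlr6. Tlr2 had r between -0.46 and 0.25 with the other members. The genes most like each member over the 8 arrays were sought among the 10673 tested. Predicted genes, clones, olfactory and vomeronasal receptors, small RNA genes and Toll-like receptors were left out of that search. The closest were Stxbp4, P2rx6 and Mmp13 for Tlr1, with r of 0.991 for the first. They were Srgn, Blcap and Rbm18 for Tlr2 (0.961), Fnbp1l, Tbrg1 and Twsg1 for Tlr3 (0.996), and Pwwp2b, Trf and Lpar6 for Tlr4 (0.982). For Tlr6 they were Fam89b, Glg1 and Rb1cc1 (0.999), for Tlr7 Fgd4, Tom1 and Hacd4 (0.996), for Tlr8 Vsir, Mtus1 and Ctss (0.984) and for Tlr13 Pisd, Zdhhc9 and Klra2 (0.988). Tlr9 spanned less than 1 unit and was given none. Ctss, a lysosomal protease of the endosomal list, read 11.37 in Ly6Clo and 12.13 in Ly6Chi CX3CR1int cells, 11.88 to 12.23 in CX3CR1hi cells and 12.21 and 12.28 in colitis and steady-state splenic cells, lowest where Tlr8 was lowest. The arrays share 3 populations, so these values describe few independent points.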

How the data were processed

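Total RNA of sorted cells was hybridised to Affymetrix arrays, 1 per group, and the authors deposited log2 expression values, made with RMA and Partek per the submitters' processing notes. Their versions, their settings and a genome build are not given in the sources used here. Of 35399 probe sets, 21789 carried 1 gene symbol, 1621 several and 11989 were not listed in the annotation. Genes were named from single-symbol probe sets, and of several for 1 gene the one with the highest mean over the arrays was used. A gene was tested if 2 or more arrays read it no lower than their own median (10673 genes). Population contrasts were fitted with limma 3.58.1 in R 4.3.3 over all 8 arrays with population as the factor, and with condition added for colitis, and p-values were adjusted by Benjamini and Hochberg with a threshold of 0.05. Differences between single arrays carry no test; a gene entered where the brighter array was at or above its median, and 1 on the log2 scale was called 2-fold. The members and gene lists were chosen with earlier results of these data known. Genes of each pathway list named as higher or lower in a contrast are up to 4 with the largest called change. Ticam1, Il12b, Cd14 and Ly96 were also named for their role, and Ctss as a most alike gene. The most alike genes are those with the highest Pearson r among the genes kept for that search. Promoters were taken from RefSeq. The script was tested on simulated data.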

Additional observations from a re-analysis of the deposited data

How the results depend on the processing

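Each group has 1 array, so the spread mixes sex, condition and sort, and the number of arrays limits the precision. No paired analysis was possible because each group has 1 array and the labels give no replicate numbers. For CX3CR1hi against splenic cells, 3505 genes passed with a filter at the 75th percentile and 7 members with only the arrays compared; leaving out 1 array gave 3119 to 6386 genes and 3 to 7 members. For CX3CR1int against splenic cells, a condition term gave 1643 genes and 1 member and only the arrays compared gave 1092 genes and 0 members; leaving out 1 array gave 619 to 3732 genes and 0 to 7 members, with 0 members without either splenic array. For CX3CR1int against CX3CR1hi cells, a sex term gave 1992 genes and 1 member, a condition term 972 genes and 1 member, and only the arrays compared 1 member; leaving out 1 array gave 2394 to 3634 genes and 1 to 7 members, 7 of them without the Ly6Chi array. The causes were not tested. Colitis against steady state gave 0 genes in every setting run. Under settings other than leaving out an array, 292 of the members' fold changes kept their side of the threshold, 20 lost a call and 3 gained one, and none that was called changed sign.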

Other observations

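Tlr12, which in mice senses profilin of parasites and is not among the members, was looked at after its values were seen. It read 6.20 in Ly6Clo and 5.63 in Ly6Chi CX3CR1int cells, 9.24 in F4/80hi colitis, 9.72 in F4/80hi steady-state, 9.64 in reconstituted and 9.11 in resident CX3CR1hi cells, against 5.59 in colitis and 5.34 in steady-state splenic monocytes. All 4 CX3CR1hi arrays stood above the other 4, by 3.96 over the splenic arrays (SE 0.23, limma adjusted p = 2e-05), or by 3.83 without the steady-state splenic array (limma adjusted p = 0.00057), and CX3CR1int cells differed from CX3CR1hi cells by -3.51 (limma adjusted p = 0.00014).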
